A study of Mus musculus with 9 samples.

Results

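Transcripts of 10 circadian clock genes were measured in bulk RNA sequencing of paraventricular nucleus (PVN) punches from 9 male wild type mice, C57BL/6 in the labels and C57BL/6J in the study's methods. The genes were listed by name and were Per1, Per2, Per3, Cry1, Cry2, Clock, Nr1d1, Nr1d2, Dbp and Tef. All 10 were found among the 27179 genes of the count table, and all 10 passed the filter on low counts which 17344 genes passed in all. For 12 weeks from an age of 5 weeks, fat supplied 16% of the calories in the chow of Control mice and 60% in the diet of HFD and HFD+Mino mice. HFD+Mino mice were also given minocycline, a tetracycline antibiotic that dampens microglial activation, with 40 mg/kg/day over the final 6 weeks. Each group held 3 mice and each library came from 1 mouse. The sample labels give an age of 35 days, which equals the age at the start of the diet. The comparisons address how the diet, and minocycline given during the diet, were related to transcript levels in the PVN.

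The mammalian clock is a feedback loop of transcription. CLOCK pairs with ARNTL (also called BMAL1), and the pair binds E-boxes in the promoters of the Per and Cry genes, whose proteins return to the nucleus and repress CLOCK and ARNTL. The pair also drives Nr1d1 and Nr1d2, which encode the nuclear receptors REV-ERB alpha and REV-ERB beta, repressors of Arntl, and Dbp, whose protein acts through D-boxes together with its relatives TEF and HLF. The suprachiasmatic nucleus holds the master clock, and the PVN, which receives its output, expresses clock genes of its own and governs the daily rhythm of glucocorticoid release. These transcripts cycle over the day, and the hour at which tissue was collected is not given in the sources used here, so that a difference in hour between groups cannot be told apart from a difference in level.

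Promoter windows from RefSeq (250 bases before to 50 after a transcript start, build GRCm38.p6) matched 9 of the 10 genes; Per2 had no entry. Exact matches were sought on both strands for the E-box CACGTG, present in 7.15% of all 32851 windows, the related E-prime box CACGTT (4.68%), the D-box TTATGTAA or TTACGTAA (1.06%), the ROR and REV-ERB element TAGGTCA (2.61%) and the cAMP response element TGACGTCA (1.79%). E-boxes were found in windows of Per1, Cry1 and Tef, E-prime boxes in those of Cry1, Cry2 and Nr1d1, and 2 D-boxes in that of Per3. The windows of Clock, Nr1d2 and Dbp held no match, which says only that these letters do not occur there. The windows of 4 genes are shown because Dbp and Tef, members of a single factor family, had opposite patterns of level, because Per3 was the only one of the 9 genes with D-boxes, and because Ciart, outside the 10, carried 3 E-boxes and passed the test. They lie at chr7:45704997-45705296 (Dbp, plus strand), chr15:81802423-81802722 (Tef, plus strand), chr4:151044616-151044915 (Per3, minus strand) and chr3:95882179-95882478 (Ciart, minus strand). Capitals mark the matched motifs, and each window is written 5′ to 3′ on the strand of its gene.
Dbp: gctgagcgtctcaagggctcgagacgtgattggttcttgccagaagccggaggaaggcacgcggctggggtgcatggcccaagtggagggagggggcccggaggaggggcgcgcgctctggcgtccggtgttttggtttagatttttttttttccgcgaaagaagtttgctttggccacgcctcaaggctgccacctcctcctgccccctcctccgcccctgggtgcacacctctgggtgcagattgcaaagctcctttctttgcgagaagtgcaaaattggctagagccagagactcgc
Tef: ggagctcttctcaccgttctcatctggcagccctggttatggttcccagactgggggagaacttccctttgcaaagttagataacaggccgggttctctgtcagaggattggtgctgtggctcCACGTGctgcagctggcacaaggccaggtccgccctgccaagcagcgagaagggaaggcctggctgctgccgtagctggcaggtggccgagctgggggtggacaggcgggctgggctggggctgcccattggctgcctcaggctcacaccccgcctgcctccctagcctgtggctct
Per3: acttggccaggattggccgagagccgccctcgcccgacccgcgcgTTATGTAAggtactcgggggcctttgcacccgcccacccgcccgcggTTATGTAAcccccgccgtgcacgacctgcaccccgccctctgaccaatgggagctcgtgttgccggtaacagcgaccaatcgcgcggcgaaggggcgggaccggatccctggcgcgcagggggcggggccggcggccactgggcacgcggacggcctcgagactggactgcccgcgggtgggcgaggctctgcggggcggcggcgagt
Ciart: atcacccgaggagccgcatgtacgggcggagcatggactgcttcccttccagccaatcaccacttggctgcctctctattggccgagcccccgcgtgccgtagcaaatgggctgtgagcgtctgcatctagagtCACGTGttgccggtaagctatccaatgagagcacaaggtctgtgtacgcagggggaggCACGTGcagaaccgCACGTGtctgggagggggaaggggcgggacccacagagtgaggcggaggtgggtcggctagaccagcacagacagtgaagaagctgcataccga

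Total counts ran from 17728590 to 42326213 per library, and the 10 genes had between 123 counts (Per1 in HFD+Mino replicate 2) and 11123 counts (Tef in HFD replicate 3). Levels are given as CPM, which here means counts divided by TMM-scaled library sizes, and, where genes are compared, as RPKM, which also divides by exon length. The PVN label was checked with 7 marker genes, and Control replicate 1 stood apart. It had 0.770 CPM of Oxt, 0.149 CPM of Avp, 0.770 CPM of Sim1 and no count of Otp, while its 5 oligodendrocyte markers summed to 27773 CPM against 2131 to 6561 CPM in the other 8 libraries. HFD+Mino replicates 1 and 2 had summed Avp and Oxt levels of 36956 and 30876 CPM, against 2576 CPM in HFD+Mino replicate 3 and 1992 to 3393 CPM in HFD. In a punch, fewer cells of a type and less RNA per cell cannot be told apart. Among markers of the suprachiasmatic nucleus, which lies below the PVN, the peptides Vip (0.324 to 7.13 CPM) and Nms (0.397 to 6.63 CPM) were low in every library. Other markers of it differed in mean between Control, HFD and HFD+Mino, in differing directions. Prok2 had 0.0822, 2.00 and 3.04 CPM, Grp 2.96, 1.91 and 6.93 CPM, and Lhx1 5.51, 4.95 and 1.77 CPM. Rgs16 and Rorb were higher, with means of 38.0 and 21.5 CPM in Control.

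**Figure D1:**
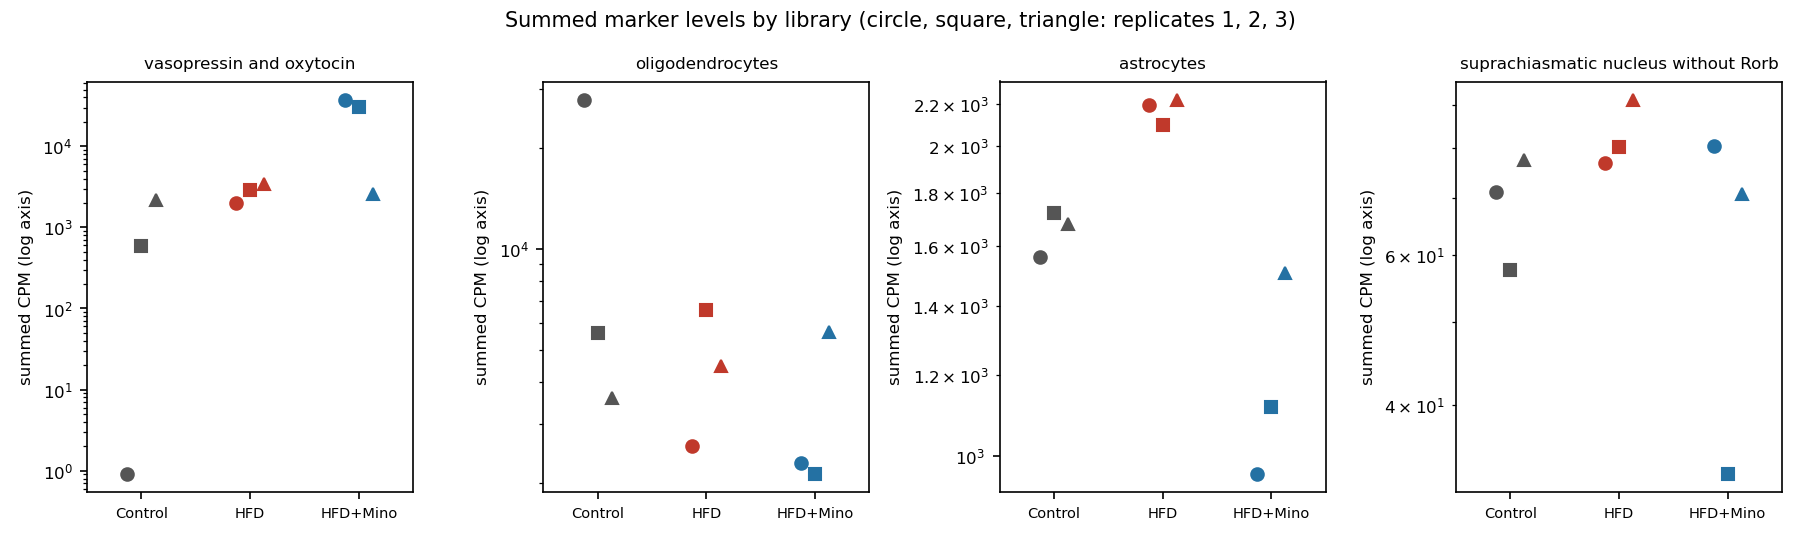
Summed CPM (log axis) of vasopressin and oxytocin transcripts and of oligodendrocyte, astrocyte and suprachiasmatic nucleus markers in each of the 9 libraries, with circles, squares and triangles for replicates 1, 2 and 3. Control replicate 1 lies at 0.919 CPM for vasopressin and oxytocin, and the astrocyte sums of the 3 groups do not overlap.

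Per exon length, Nr1d1 had the highest mean level of the 10 genes in every group, at 28.0 ± 5.82 RPKM in Control, 34.9 ± 2.30 RPKM in HFD and 20.6 ± 11.6 RPKM in HFD+Mino (SD, n = 3). In Control it was followed by Tef (19.1 RPKM), Cry2 (18.0 RPKM), Nr1d2 (14.5 RPKM), Dbp (9.16 RPKM) and Cry1 (8.41 RPKM), and the 3 Per genes and Clock lay between 1.28 and 2.28 RPKM. Among neighbours in the Control order, only Nr1d2 and Dbp, Dbp and Cry1, and Cry1 and Per3 had ranges over the 3 mice that did not overlap. Dbp held the sixth place in HFD, at 7.74 ± 0.874 RPKM, with its range apart from both neighbours. In HFD+Mino it held the second place at 17.6 ± 6.42 RPKM, with a range that overlapped those of Nr1d1 above it and Tef below it. Clock was last in Control and HFD+Mino and stood above Per1 and Per3 in HFD, although its range and that of Per3 overlapped there.

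Most of the 10 transcripts had their highest mean in HFD and their lowest in HFD+Mino. That order, HFD+Mino below Control below HFD, was found for 6 genes (Per2, Cry1, Cry2, Nr1d1, Nr1d2 and Tef), while Per1 and Clock had Control lowest and HFD highest. Dbp ran the other way, lowest in HFD and highest in HFD+Mino, and Per3 was lowest in Control and highest in HFD+Mino. All 3 HFD libraries lay above all 6 others for Clock, Nr1d2, Tef and, by a margin of 35.82 against 35.81 CPM, Cry1, and below all 6 for Dbp. That is 4 of 10 genes where 13.4% of all tested genes had HFD above both other groups, and 1 of 10 where 9.62% had it below both.

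**Figure D2:**
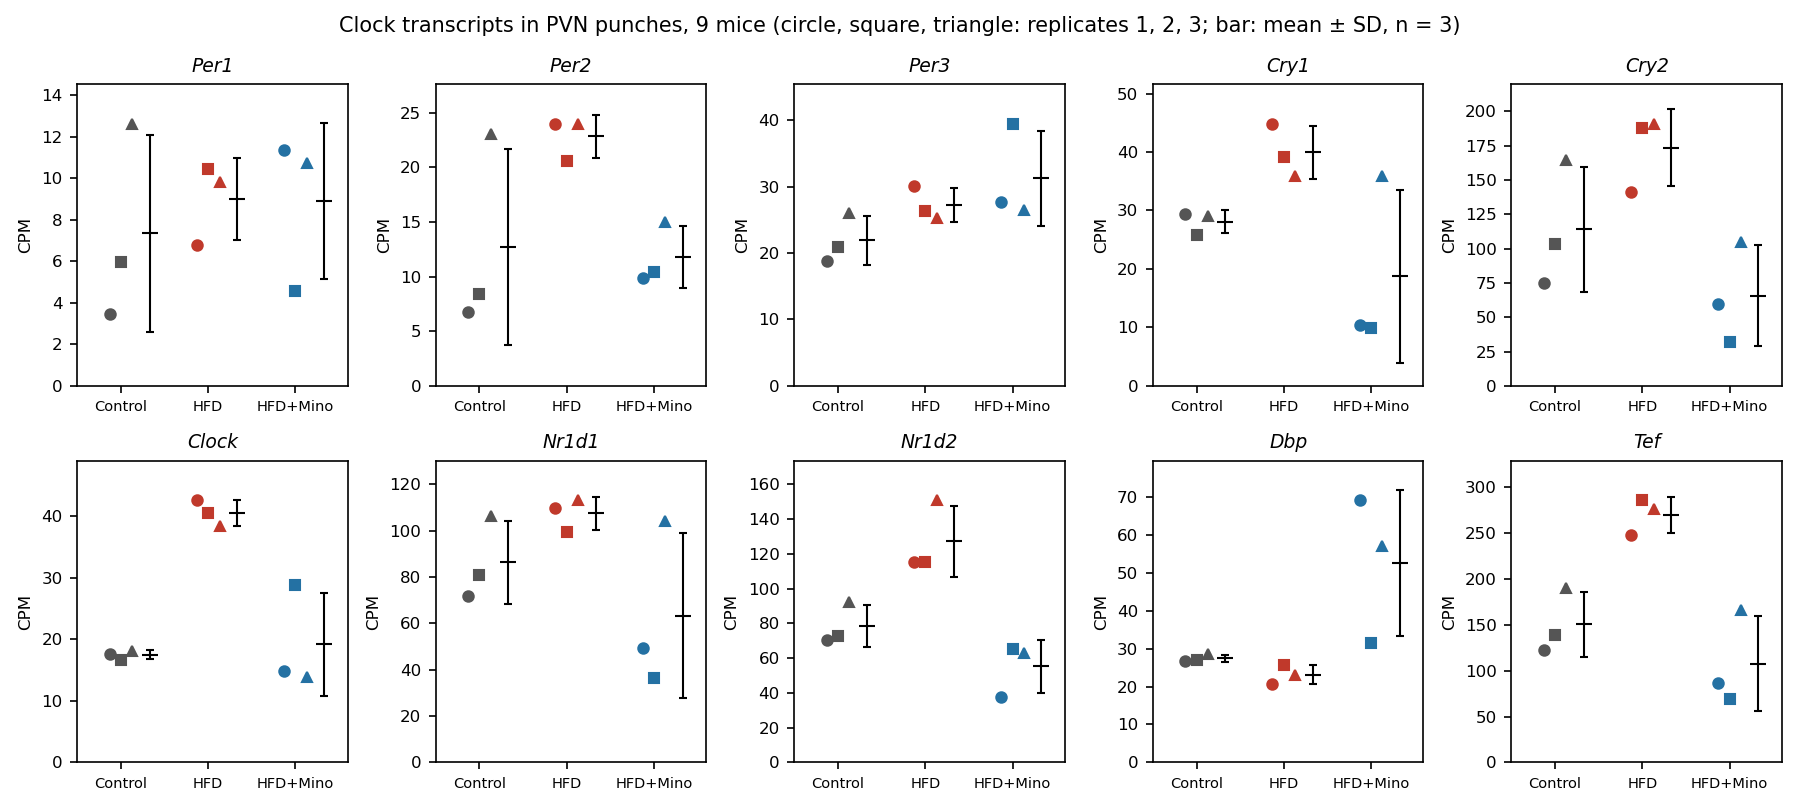
CPM of the 10 clock genes in each of the 9 libraries (y axis from 0, a separate scale per gene), with circles, squares and triangles for replicates 1, 2 and 3 and the group mean ± SD (n = 3) beside them. Clock lies at 38.4 to 42.6 CPM in HFD and at 13.9 to 28.9 CPM in the other libraries, whereas Dbp lies at 20.6 to 25.8 CPM in HFD and at 26.6 to 69.1 CPM elsewhere.

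None of the 10 genes met the study's cut-offs, FDR under 0.01 with at least a 1.5-fold difference, in any comparison by the test used here. That was the quasi-likelihood test of edgeR, Benjamini-Hochberg adjusted over all 17344 tested genes. The study names edgeR but no test or filter within it. It reported more transcripts at these cut-offs than the 369 genes called in the 3-way test here, so the counts below are not those of the study. The counts were 0 of 10 in the 3-way test, in which 2.13% of all tested genes were called, 0 of 10 in HFD against Control (1.74%), 0 of 10 in HFD+Mino against HFD (4.15%) and 0 of 10 in HFD+Mino against Control (0% of all genes). The same tool at FDR under 0.05 called 3 of 10 in the 3-way test (Clock, Nr1d2 and Tef; 13.0% of all genes), 1 of 10 in HFD against Control (Clock; 5.77%), 5 of 10 in HFD+Mino against HFD (Clock, Cry2, Dbp, Nr1d2 and Tef; 27.4%) and 0 of 10 in HFD+Mino against Control (0%). At an unadjusted p under 0.05 there were 5 of 10 in the 3-way test (39.0% of all genes), 3 of 10 in HFD against Control (20.5%), 8 of 10 in HFD+Mino against HFD (41.3%) and 1 of 10 in HFD+Mino against Control (21.3%). DESeq2 called 3, 1, 5 and 0 of the 10 in these comparisons at FDR under 0.01, where it called 13.5%, 6.84%, 22.4% and 1.56% of all genes. Among these shares, that at an unadjusted p in HFD+Mino against HFD lay furthest above the share of all genes. It was picked as the largest of many, and the genes were chosen with earlier results of these data known. It is therefore no support for a difference particular to the 10 genes.

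Same-numbered Control and HFD+Mino mice deviated together, and a fit that took the replicate number as a block in those groups moved the counts at FDR under 0.01. That pairing was chosen from these same counts, so calls added by the fit are no support for it. The fit called 5 of 10 genes in the 3-way test (Cry2, Dbp, Nr1d2, Per2 and Tef), where it called 18.3% of all genes, and 1 of 10 in HFD against Control (Tef), where it called 7.59%. In HFD+Mino against HFD it called 7 of 10 (Clock, Cry2, Dbp, Nr1d1, Nr1d2, Per2 and Tef), where it called 26.0%, and in HFD+Mino against Control 0 of 10, where it called 3.18%. Within each of the 3 pairs HFD+Mino was lower than Control for Tef (122 and 87.0 CPM, 139 and 69.0 CPM, 190.4 and 167 CPM), for Cry2 (74.8 and 59.9 CPM, 103 and 32.2 CPM, 164 and 105 CPM) and for Nr1d1 (71.6 and 49.5 CPM, 81.0 and 36.6 CPM, 106 and 104 CPM). Nr1d2 was also lower in each pair (70.3 and 37.7 CPM, 72.9 and 65.3 CPM, 92.2 and 62.7 CPM). Dbp (26.6 and 69.1 CPM, 27.1 and 31.5 CPM, 28.5 and 57.1 CPM) and Per3 (18.9 and 27.7 CPM, 20.9 and 39.5 CPM, 26.0 and 26.5 CPM) were instead higher in HFD+Mino in each pair. Per1, Per2, Cry1 and Clock differed in direction between pairs. The share of all genes with a single direction in all 3 pairs is not given here. As the pairs were chosen from these counts, these directions and the paired values that follow are no support for a difference. The paired log2 fold changes of HFD+Mino against Control were -0.56 for Tef, -0.88 for Cry2 and -0.57 for Nr1d1 (edgeR FDR = 0.0567, 0.0440 and 0.0893). The pairing rests on the counts alone, as no source names a litter, batch or day that same-numbered mice shared. Replicate numbers follow the sample titles. The HFD count columns carry other numbers than their titles, so a block that joins HFD mice by column number was not tested.

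The median log2 fold change of the 10 genes was 0.56 in HFD against Control, where the median of all tested genes was 0.00434 and 9 of the 10 lay above 0. It was -1.01 in HFD+Mino against HFD (0.00886 over all tested genes), with 8 of the 10 below 0, and -0.28 in HFD+Mino against Control (-0.0225), with 6 below 0. The first and second of these comparisons share the HFD mice, so that a high HFD level alone gives opposite signs in them. HFD and Control did not overlap for 5 genes, with HFD above for Clock, Cry1, Nr1d2 and Tef and below for Dbp, where 35.7% of all tested genes did not. HFD+Mino lay wholly below HFD for 6 genes (Per2, Cry1, Cry2, Clock, Nr1d2 and Tef) and wholly above it for 1 (Dbp), against 23.5% and 23.3% of all tested genes. Against Control it lay wholly above for Per3 and Dbp and wholly below for Nr1d2, against 8.93% and 10.1% of all tested genes.

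**Figure D3:**
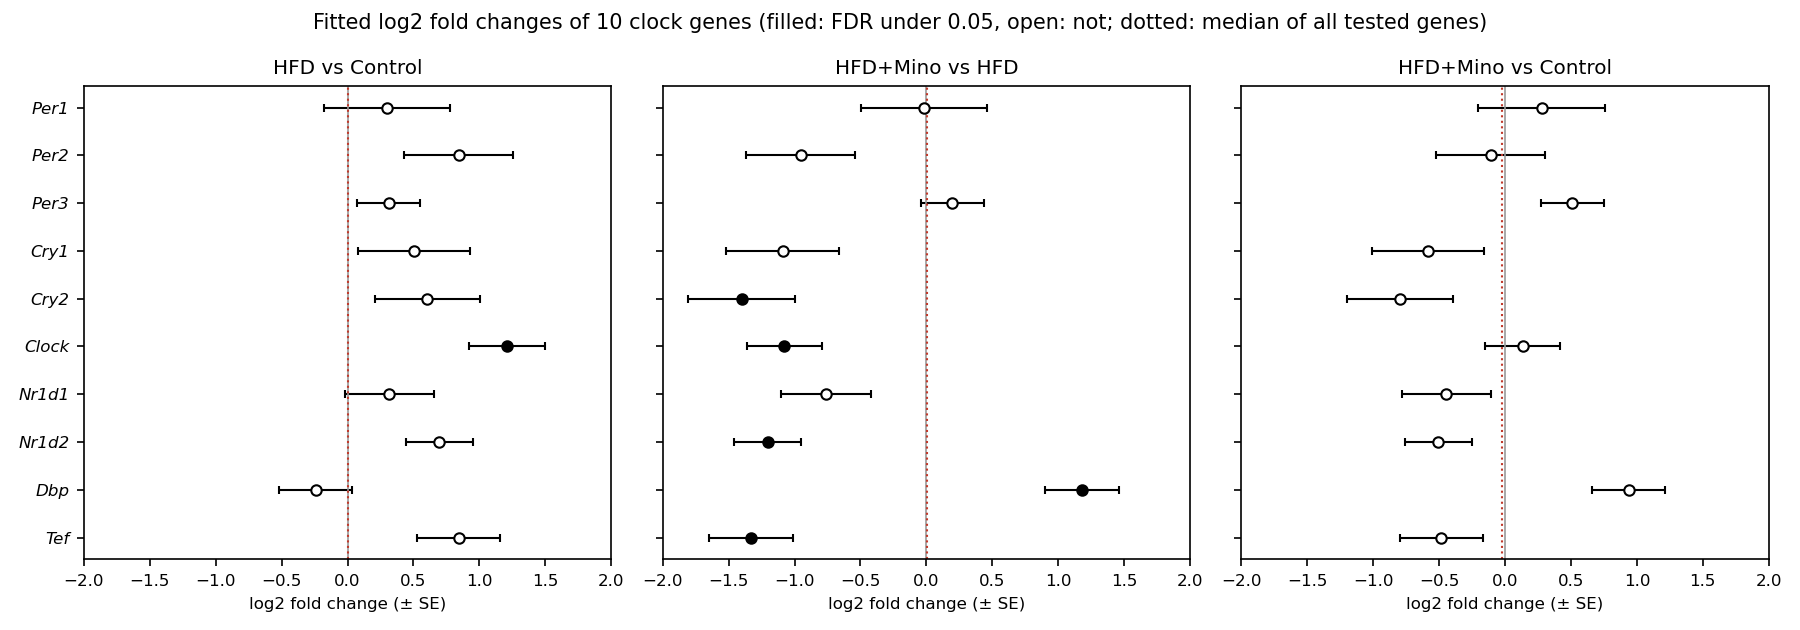
Fitted log2 fold changes (x axis, ± SE from edgeR) of the 10 clock genes in the 3 comparisons of pairs of groups, with filled points for FDR under 0.05 and a dotted line at the median of all tested genes. In HFD+Mino against HFD, 8 of the 10 points lie below 0, and Dbp lies at 1.18.

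Clock encodes the DNA-binding partner of ARNTL and lies at chr5:76209868-76305603 (RefSeq, GRCm38.p6, as for all gene positions here). It had 17.6, 16.7 and 18.2 CPM in the 3 Control mice, 42.6, 40.5 and 38.4 CPM in the HFD mice, and 14.9, 28.9 and 13.9 CPM in the HFD+Mino mice. The HFD mice were above all others, the Control mice were tightly grouped, and HFD+Mino replicate 2 stood between the groups. The log2 fold change was 1.21 ± 0.29 (SE) in HFD against Control (edgeR FDR = 0.0322) and -1.08 ± 0.29 in HFD+Mino against HFD (edgeR FDR = 0.0211). Both values changed with the treatment of exon length. Clock has the longest exon sequence of the 10 genes, 13727 nt, longer than 96.4% of tested genes with a known length, and removing each library's trend on exon length brought the log2 fold changes to 0.71 (edgeR FDR = 0.152) and -0.47 (edgeR FDR = 0.220). Without Control replicate 1 the first of them was 1.21, with an edgeR FDR of 0.0974, and without HFD+Mino replicate 2 both met the threshold, at 1.21 (edgeR FDR = 0.00445) and -1.49 (edgeR FDR = 0.00505).

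Arntl, which encodes the partner of CLOCK, and Npas2, a close relative of Clock that can take its place, had their group means in other orders. Arntl had 29.6, 31.1 and 40.1 CPM in Control, 38.4, 39.0 and 41.2 CPM in HFD and 15.9, 6.72 and 31.0 CPM in HFD+Mino. Control and HFD overlapped, whereas every HFD+Mino mouse was below every HFD mouse, with a log2 fold change of -1.14 ± 0.42 (edgeR FDR = 0.0649). Npas2 was low and scattered, at 0.446 to 13.5 CPM over the 9 libraries, with log2 fold changes of -0.24 ± 0.75 and -0.30 ± 0.75 in HFD against Control and in HFD+Mino against HFD (edgeR FDR = 0.886 and 0.791).

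The Per genes encode the PERIOD proteins, which enter the nucleus with the cryptochromes and repress CLOCK and ARNTL. Per1, at chr11:69095108-69109965, had 3.48, 5.96 and 12.6 CPM in Control, 6.78, 10.4 and 9.83 CPM in HFD and 11.4, 4.57 and 10.8 CPM in HFD+Mino. The groups overlapped throughout, and its log2 fold changes, 0.30 ± 0.48 in HFD against Control and -0.02 ± 0.48 in HFD+Mino against HFD, were smaller than their errors (edgeR FDR = 0.765 and 0.980). Per2, at chr1:91415977-91459351, had 6.76, 8.41 and 23.0 CPM in Control, 23.9, 20.6 and 24.0 CPM in HFD and 9.89, 10.4 and 15.0 CPM in HFD+Mino. All HFD+Mino mice were below all HFD mice, and Control replicate 3 lay among the HFD mice while the other two Control mice lay below every other library. The log2 fold change was 0.84 ± 0.41 in HFD against Control (edgeR FDR = 0.280), ranging from 0.53 without Control replicate 1 to 1.59 without Control replicate 3, and -0.95 ± 0.42 in HFD+Mino against HFD (edgeR FDR = 0.107). Per3, at chr4:150997018-151044707, had 18.9, 20.9 and 26.0 CPM in Control, 30.1, 26.3 and 25.3 CPM in HFD and 27.7, 39.5 and 26.5 CPM in HFD+Mino. It was the one Per gene with its highest level in HFD+Mino, in replicate 2, and all 3 HFD+Mino mice were above all Control mice, with a log2 fold change of 0.51 (edgeR FDR = 0.245). Control replicate 1, the library with almost no Oxt or Avp, had the lowest level of all 9 for each of the 3 Per genes.

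The cryptochromes CRY1 and CRY2 are the stronger repressors of the loop. Cry2, at chr2:92403646-92434085, had 74.8, 103 and 164 CPM in Control, 141, 188 and 191 CPM in HFD and 59.9, 32.2 and 105 CPM in HFD+Mino. All HFD+Mino mice were below all HFD mice, with a mean 2.64-fold lower and a log2 fold change of -1.40 ± 0.41 (edgeR FDR = 0.0284), the lowest value of the 10 genes in that comparison. HFD and Control overlapped (0.61 ± 0.40 on the log2 scale, edgeR FDR = 0.421), and without Control replicate 1 this difference was 0.37. The value in HFD+Mino against HFD ran from -1.07 without HFD+Mino replicate 2 to -1.91 without replicate 3. On the other strand, 295 nt of Cry2 exons overlap D930015M05Rik, which had at most 0.653 CPM. Cry1, at chr10:85131700-85185054, had 29.4, 25.9 and 29.1 CPM in Control, 44.8, 39.1 and 35.8 CPM in HFD and 10.5, 9.88 and 35.8 CPM in HFD+Mino. HFD+Mino replicates 1 and 2 had the lowest levels of the 9 libraries, while replicate 3 lay at the lower edge of the HFD mice. The log2 fold change was -1.09 ± 0.43 in HFD+Mino against HFD (edgeR FDR = 0.0789), and it was -1.97 without HFD+Mino replicate 3 (edgeR FDR = 0.000639) and -0.78 without replicate 2 (edgeR FDR = 0.204).

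Nr1d1 and Nr1d2 encode REV-ERB alpha and REV-ERB beta, heme-binding nuclear receptors that repress Arntl and link the clock to lipid metabolism. Nr1d2, at chr14:18204056-18239106, had 70.3, 72.9 and 92.2 CPM in Control, 115, 115 and 151 CPM in HFD and 37.7, 65.3 and 62.7 CPM in HFD+Mino. It was the only one of the 10 genes whose 3 groups did not overlap in any pair in the order HFD+Mino, Control, HFD. The log2 fold change was 0.70 ± 0.25 in HFD against Control (edgeR FDR = 0.145) and -1.20 ± 0.25 in HFD+Mino against HFD (edgeR FDR = 0.0116), the smallest FDR of the 10 genes in that comparison. It met the threshold of 0.01 under 7 of 13 other settings, among them the paired fit, and the values ran from -0.84 to -1.56. Those 7 settings called 6.76% to 26.0% of all genes, against 4.15% in the main fit. With single mice left out, Nr1d2 met the threshold in 1 of 9 fits. Without Control replicate 1 the difference of HFD from Control was 0.62. Nr1d1, at chr11:98767932-98775377, had 71.6, 81.0 and 106 CPM in Control, 109.9, 99.5 and 113 CPM in HFD and 49.5, 36.6 and 104 CPM in HFD+Mino. HFD+Mino replicates 1 and 2 were below every other library and replicate 3 lay within the HFD mice, so that the log2 fold change of -0.76 ± 0.34 (edgeR FDR = 0.116) became -1.32 without replicate 3 (edgeR FDR = 0.00246). Of its exon sequence, 263 nt overlap those of Thra on the other strand.

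TEF and DBP belong to a single family, the PAR bZIP factors, and activate genes through D-boxes. Tef, at chr15:81802673-81826863, had 122, 139 and 190.4 CPM in Control, 248, 286 and 277 CPM in HFD and 87.0, 69.0 and 167 CPM in HFD+Mino. The HFD mice were above all others, and the Control and HFD+Mino mice overlapped. The log2 fold change was 0.84 ± 0.32 in HFD against Control (edgeR FDR = 0.158) and -1.33 ± 0.32 in HFD+Mino against HFD (edgeR FDR = 0.0154), the latter running from -0.85 to -1.67 under other settings with all libraries kept. Without Control replicate 1 the first of these was 0.71. On the other strand, 193 nt of Tef exons overlap Gm17597, which had 2.04 to 3.86 CPM in HFD and 5.03 to 12.4 CPM in HFD+Mino.

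Dbp, at chr7:45705100-45710203, had 26.6, 27.1 and 28.5 CPM in Control, 20.6, 25.8 and 23.1 CPM in HFD and 69.1, 31.5 and 57.1 CPM in HFD+Mino. Its groups did not overlap in any pair, with the Control mice closely grouped (27.4 ± 0.993 CPM, SD, n = 3) and the HFD+Mino mice widely spread (52.6 ± 19.2 CPM). The log2 fold change was -0.24 ± 0.28 in HFD against Control (edgeR FDR = 0.656), 1.18 ± 0.28 in HFD+Mino against HFD (edgeR FDR = 0.0148) and 0.94 ± 0.28 in HFD+Mino against Control (edgeR FDR = 0.133). The second of these met the threshold under 6 of 13 other settings and stayed between 1.02 and 1.34. Those 6 settings called 5.24% to 26.0% of all genes, against 4.15% in the main fit. With single mice left out it met the threshold in 1 of 9 fits and ran from 0.94 without HFD+Mino replicate 1 to 1.45 without replicate 2. Dbp has the shortest exon sequence of the 10 genes (2993 nt) and the highest GC content (61.6%, above 97.9% of tested genes). Removing the trends on GC content and on the GC-richest 100 nt gave 1.17 (edgeR FDR = 0.00379) and 1.26 (edgeR FDR = 0.00945) in HFD+Mino against HFD. With the trend on exon length removed, Dbp did not meet the threshold in that comparison, where 2.74% of all genes did. Of its exon sequence, 539 nt overlap on the other strand with Sphk2, a sphingosine kinase gene. Whether reads were counted by strand is not given in the sources used here, so reads from that stretch cannot be assigned. Sphk2 had its levels in the opposite order, 17.1 to 24.9 CPM in Control, 33.6 to 38.2 CPM in HFD and 9.40 to 21.5 CPM in HFD+Mino, with a log2 fold change of -1.37 ± 0.32 in HFD+Mino against HFD (edgeR FDR = 0.0143).

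Within a library, the ratio of Dbp to Tef does not depend on scaling to library size. On the log2 scale it was -2.20, -2.36 and -2.74 in Control, -3.59, -3.47 and -3.58 in HFD, and -0.33, -1.13 and -1.55 in HFD+Mino. The 3 groups did not overlap, with HFD lowest and HFD+Mino highest. Dbp and Tef each lay apart between HFD and the other groups, in opposite directions, so the low ratio in HFD follows from levels already given. The log2 ratio of Dbp to Clock was 0.59, 0.70 and 0.65 in Control, -1.05, -0.65 and -0.73 in HFD and 2.21, 0.12 and 2.04 in HFD+Mino, where replicate 2 fell below the Control mice. The ratio of Nr1d1 to Arntl, a target of the CLOCK and ARNTL pair against a member of that pair, was 1.28 to 1.41 in Control and 1.35 to 1.52 in HFD, which overlapped, and 1.64, 2.44 and 1.74 in HFD+Mino, above all others. Against Clock, the other member of the pair, the log2 ratio of Nr1d1 was 2.02, 2.28 and 2.55 in Control, 1.37, 1.30 and 1.56 in HFD and 1.73, 0.34 and 2.91 in HFD+Mino, which spanned both other groups. The ratios of Per1 to Clock and of Cry1 to Cry2 overlapped between every pair of groups. Those of Per1 to Per2 and of Nr1d1 to Nr1d2 were lower in every HFD mouse than in every Control mouse, and their HFD+Mino ranges overlapped both other groups. For Dbp to Arntl the groups did not overlap, with HFD lowest and HFD+Mino highest.

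**Figure D4:**
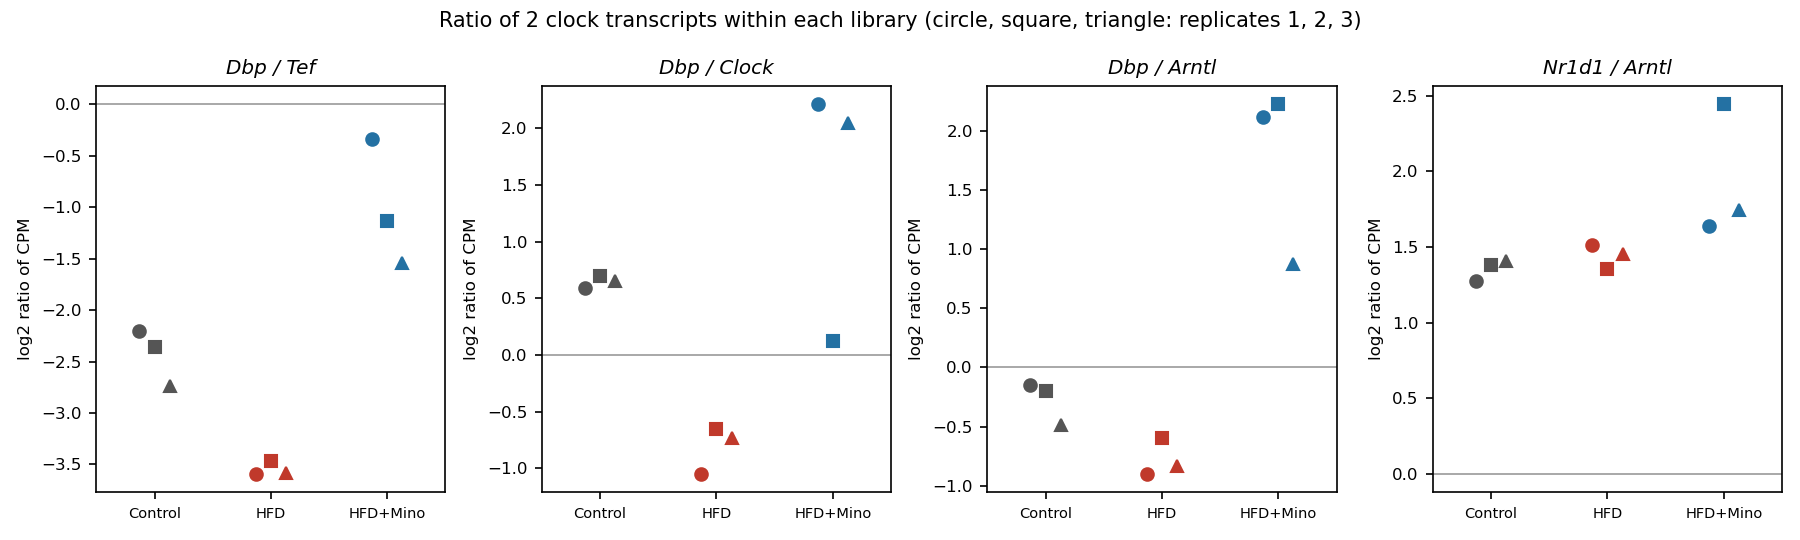
Log2 ratios of the CPM of pairs of clock transcripts within each of the 9 libraries (y axes, a separate scale per pair), with circles, squares and triangles for replicates 1, 2 and 3. For Dbp over Tef the groups are apart, from -3.59 to -3.47 in HFD up to -1.55 to -0.33 in HFD+Mino.

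A further 24 clock genes were counted in the same way, and 2 of them met the threshold in the 3-way test (1 higher and 1 lower in HFD, 2.13% of all genes), 1 in HFD against Control (1.74%), 2 in HFD+Mino against HFD (4.15%) and 0 in HFD+Mino against Control by edgeR (0%) and by DESeq2 (1.56%). In this last comparison 3 of 24 had an unadjusted p under 0.05, where 21.3% of all genes did. At that p, 9 of 24 passed in HFD against Control (3 higher and 6 lower, where 20.5% of all genes passed) and 13 of 24 in HFD+Mino against HFD (5 higher and 8 lower, where 41.3% passed). Their median log2 fold changes were 0.24, -0.45 and -0.41 in the comparisons of pairs. Rorb encodes a nuclear receptor that activates Arntl through the element that the REV-ERBs block. It had 20.5, 18.5 and 25.5 CPM in Control, 62.9, 61.8 and 68.8 CPM in HFD and 25.2, 20.7 and 27.2 CPM in HFD+Mino, so that it rose by 1.58 ± 0.22 on the log2 scale in HFD against Control (edgeR FDR = 0.00219) and was -1.41 ± 0.22 in HFD+Mino against HFD (edgeR FDR = 0.00409). Ciart (also called Chrono) encodes a repressor of CLOCK and ARNTL. It had 31.4, 31.0 and 26.4 CPM in Control, 14.7, 17.8 and 15.7 CPM in HFD and 82.3, 35.4 and 54.6 CPM in HFD+Mino, with groups that did not overlap in any pair. It was called lower in HFD in the 3-way test (edgeR FDR = 0.00930) and rose by 1.84 ± 0.29 in HFD+Mino against HFD (edgeR FDR = 0.00465), while HFD against Control gave -0.88 ± 0.29 (edgeR FDR = 0.106). Its levels had the same order of groups as those of Dbp. Without any 1 of the HFD mice, or without Control replicate 2, none of the 24 genes was called in any of the 4 tests. Without HFD+Mino replicate 1 the calls in HFD+Mino against HFD were lost, and without Control replicate 1 that of Rorb in HFD against Control was lost. The 3-way call of Ciart was also lost without Control replicate 1, Control replicate 3 or HFD+Mino replicate 1, with the replicate block in all 9 samples, and with the trend on exon length or on the GC-richest 100 nt removed, and the exon length trend ended the call of Rorb in HFD+Mino against HFD.

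Of the remaining genes, Hlf, the third PAR bZIP factor, had 37.9, 26.4 and 37.9 CPM in Control, 42.5, 61.9 and 76.8 CPM in HFD and 45.8, 19.9 and 38.4 CPM in HFD+Mino. All HFD mice were above the Control mice (0.83 ± 0.33, edgeR FDR = 0.184), in the direction of Tef and not of Dbp. Nfil3, Noct, Csnk1e, Gsk3b, Csnk1d, Fbxw11 and Csnk1a1 are named here after their values were seen. Nfil3, which encodes a repressor that competes for D-boxes, had a log2 fold change of -1.93 ± 0.42 in HFD against Control (edgeR FDR = 0.0226) and 1.23 ± 0.41 in HFD+Mino against HFD (edgeR FDR = 0.0462), and every HFD mouse was below every Control mouse. Noct, which encodes a rhythmic phosphatase, had -1.45 ± 0.31 and 0.98 ± 0.31 in these comparisons (edgeR FDR = 0.0218 and 0.0389). Csnk1e, which encodes a kinase of the PERIOD proteins, had -1.48 ± 0.34 and 0.83 ± 0.33 (edgeR FDR = 0.0286 and 0.0839). The values of Gsk3b and Csnk1d, which encode further kinases of clock proteins, and of Fbxw11, which encodes a ubiquitin ligase subunit that recognises PERIOD proteins, pointed the other way. Gsk3b had 0.92 ± 0.20 in HFD against Control (edgeR FDR = 0.0248) and -0.79 ± 0.20 in HFD+Mino against HFD (edgeR FDR = 0.0191). In HFD+Mino against HFD, Csnk1d had -1.12 ± 0.33 (edgeR FDR = 0.0293) and Fbxw11 -1.18 ± 0.28 (edgeR FDR = 0.0159). For each of these 3 genes, every HFD mouse was above every mouse of both other groups. Rorb and Csnk1a1, which encodes another such kinase, had the same separation. In all, HFD lay above both other groups for 5 of the 24 genes, where 13.4% of all tested genes did. It lay below both for 3 of 24, where 9.62% did.

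**Figure D5:**
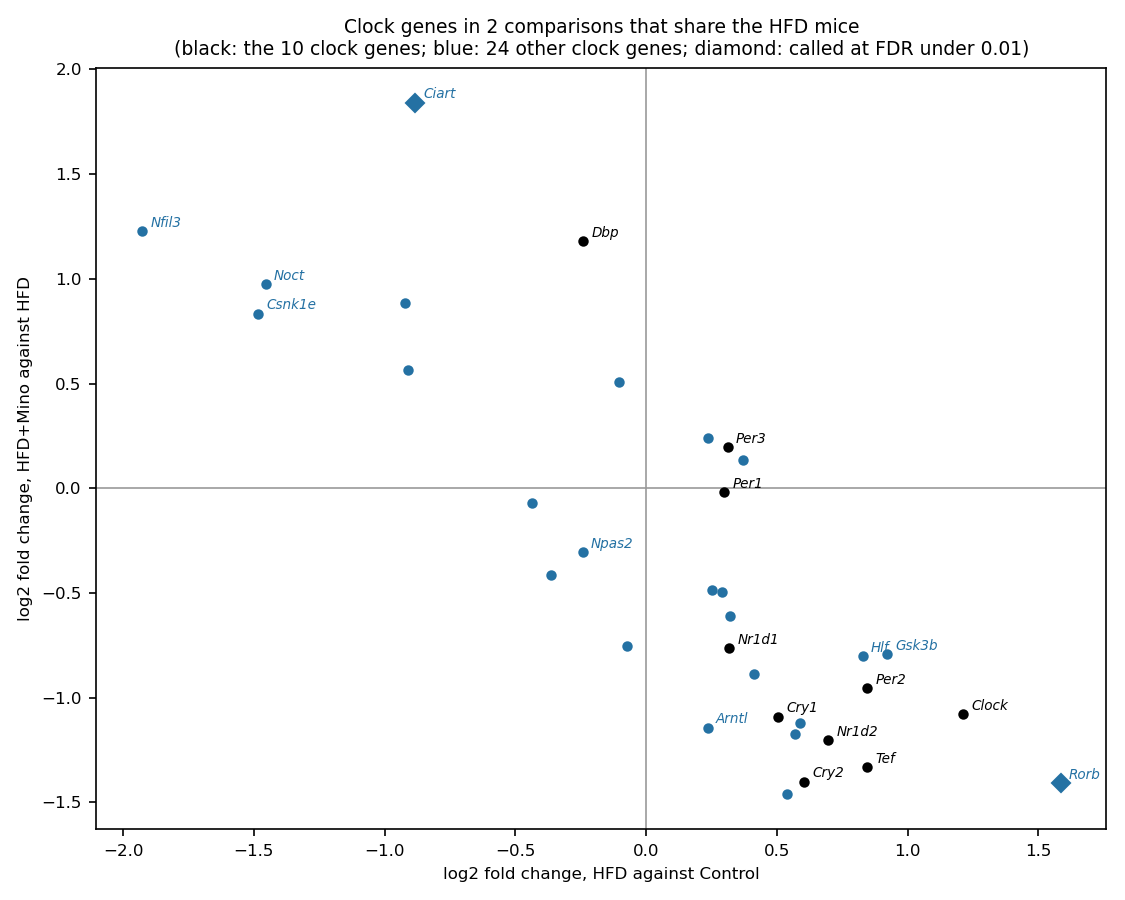
Log2 fold changes of 34 clock genes in HFD against Control (x axis) and HFD+Mino against HFD (y axis), black for the 10 clock genes, blue for the 24 others and diamonds for those called. The comparisons share the HFD mice, so opposite signs are not independent evidence. Rorb lies at 1.58 and -1.41, and Ciart at -0.88 and 1.84.

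Markers of some other cells moved with these levels and those of others did not, and their part in them was not tested. Neuron markers summed to 4124 to 6853 CPM in Control, 3082 to 4968 CPM in HFD and 3710 to 4700 CPM in HFD+Mino. In the same order, oligodendrocyte markers had 3590 to 27773 CPM, 2583 to 6561 CPM and 2131 to 5634 CPM. Endothelial markers had 112 to 244 CPM, 93.0 to 127 CPM and 118 to 382 CPM. The 5 astrocyte markers summed to 1560 to 1722 CPM in Control, 2096 to 2217 CPM in HFD and 961 to 1506 CPM in HFD+Mino, the order of groups of Per2, Cry1, Cry2, Nr1d1, Nr1d2 and Tef. Of these 5, 5 lay wholly lower in HFD+Mino than in HFD, where 23.5% of all tested genes did. Only Slc1a3 lay wholly higher in HFD than in both other groups, where 13.4% of all tested genes did. Gfap had its highest mean in Control (266 CPM, against 172 CPM in HFD). The 10 clock genes together summed to 442 to 690.5 CPM in Control, 783 to 888 CPM in HFD and 328 to 597 CPM in HFD+Mino. The 8 suprachiasmatic markers other than Rorb summed to 57.7 to 77.4 CPM, 76.8 to 91.1 CPM and 33.2 to 80.5 CPM, where the low value was that of HFD+Mino replicate 2. It rested on Rgs16 alone, which had 3.68 CPM in that library against 53.8 and 43.2 CPM in the other HFD+Mino mice. Without Rgs16 the sums were 29.5 to 32.9 CPM in Control, 17.2 to 32.8 CPM in HFD and 26.7 to 29.6 CPM in HFD+Mino, with the lowest in HFD replicate 2. The 6 microglial markers summed to 160.0 to 216 CPM in Control, 226 to 240 CPM in HFD and 177 to 223 CPM in HFD+Mino. Of these 6, 2 lay wholly higher in HFD+Mino than in HFD (Aif1 and C1qa) and 2 wholly lower (Cx3cr1 and Csf1r), against 23.3% and 23.5% of all tested genes. The 5 ependymal and choroid plexus markers summed to 7.35 to 91.1 CPM in Control, 101 to 186 CPM in HFD and 211 to 429.6 CPM in HFD+Mino. Single markers differed in direction in HFD+Mino against HFD. Log2 fold changes were 1.11 ± 0.90 for Ccdc153, 1.64 ± 1.11 for Tmem212 and 1.87 ± 0.42 for Folr1, but -0.53 ± 0.50 for Foxj1 and -0.02 ± 0.97 for Ttr. The genes called higher in HFD in the 3-way test had a median exon length of 7921 nt and those called lower 3731 nt, against 4334 nt over all tested genes with a length and 5744 nt over the 10 clock genes.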

How the data were processed

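Reads from PVN punches of 9 mice, 3 each in Control, HFD and HFD+Mino, were aligned to mm10 with HISAT2 and assigned to genes with featureCounts by the authors, who deposited raw counts for 27179 genes without normalization. Whether strand was used in counting and what was done with multimapping reads is not given in the sources used here. Library preparation used the low-input SMARTer kit, with Nextera XT fragmentation. Reads carry no molecular identifiers, so errors were taken from the spread between mice. No 2 replicates of a group agreed within counting noise (chi-square over its degrees of freedom 21.0 to 316).

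The count model was that of edgeR 4.0.16, run in R 4.3.3 (filterByExpr, TMM, quasi-likelihood fit of all 9 samples, 17344 genes tested, Benjamini-Hochberg adjustment). The 3-way test called a gene when HFD was the highest or lowest group and its log2 level differed by 1.5-fold or more from the average over the groups. In comparisons of pairs the fold was between the groups. Positions came from RefSeq (GRCm38.p6) for 25275 genes, and exon lengths and GC content from GENCODE M21 for 21572. Tables and figures were made with Python 3.11.15. The code was tested on simulated counts.

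All 10 clock genes were named, with Arntl, Hlf, Npas2 and any of the 24 other clock genes that were called. The members and lists were chosen with earlier results of these data known. Same-numbered Control and HFD+Mino samples deviated together (correlations of deviations from the group means of 0.135, 0.163 and 0.292), which pairs them from the counts alone, whereas those of HFD, numbered by their titles, did not. Unlike-numbered Control and HFD+Mino samples had -0.162 to 0.0255. Unlike-numbered pairs with HFD reached 0.167 (Control replicate 2 with HFD replicate 1). Alternatives were DESeq2 1.42.0, the likelihood ratio test of edgeR, size factors by RLE, other filters on low counts, Rn45s and the mitochondrial genome left out, replicate blocks, trends on exon length, GC content and the GC-richest 100 nt removed, thinning to 17728590 counts, other thresholds, models restricted to 6 samples, and leaving out each mouse.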

Additional observations from a re-analysis of the deposited data

How the results depend on the processing

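With 3 mice per group, an FDR under 0.01 was met by few genes, and the counts moved with the test. For the 10 clock genes, 0 were called in each comparison, against 3 in the 3-way test, 1 in HFD against Control and 5 in HFD+Mino against HFD with DESeq2, with edgeR's likelihood ratio test and with an FDR under 0.05. Of all genes, DESeq2 called 13.5%, 6.84% and 22.4% in these tests, the likelihood ratio test 12.9%, 5.57% and 19.1%, and an FDR under 0.05 gave 13.0%, 5.77% and 27.4%. The replicate block in Control and HFD+Mino alone gave 5, 1 and 7 (18.3%, 7.59% and 26.0% of all genes). In HFD+Mino against HFD, the replicate block in all 9 samples gave 2 (7.89% of all genes), no filter 3 (7.61%) and a mean count of at least 50 gave 1 (6.76%). There the GC content trend gave 3 (8.96%) and the GC-richest 100 nt 1 (5.24%). A model of 6 samples gave 1 in HFD against Control (3.67%). Leaving out single mice gave 0 to 4 in the 3-way test, 0 to 1 in HFD against Control, 0 to 1 in HFD+Mino against Control and 0 to 5 in HFD+Mino against HFD. The highest counts came without HFD+Mino replicate 3, except in HFD against Control, where the 1 came without HFD+Mino replicate 2 (2.27% of all genes). Without HFD+Mino replicate 3, 13.4% of all genes were called in the 3-way test, 6.28% in HFD+Mino against Control and 21.4% in HFD+Mino against HFD. Without any 1 of the HFD mice, at most 0.0779% were called in the 3-way test, 0.408% in HFD against Control and 0.328% in HFD+Mino against HFD.

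For the 24 other clock genes, counts of 2, 1 and 2 in those comparisons became 5, 5 and 5 with DESeq2 (13.5%, 6.84% and 22.4% of all genes) and with the likelihood ratio test (12.9%, 5.57% and 19.1%). They were 5, 5 and 7 at an FDR under 0.05 (13.0%, 5.77% and 27.4%), and 5, 2 and 5 with the replicate block in Control and HFD+Mino alone (18.3%, 7.59% and 26.0%). The 3-way count was 1 with the replicate block in all 9 samples (2.81% of all genes), with the exon length trend removed (2.17%) and with that on the GC-richest 100 nt removed (2.01%). HFD against Control gave 3 without a filter (1.92%) and with the trends on exon length (2.39%) or GC content (2.91%) removed, and 5 in a model of 6 samples (3.67%). HFD+Mino against HFD gave 1 with the exon length trend removed (2.74%) and 1 in a model of 6 samples (2.43%). Leaving out single mice gave 0 to 7, 0 to 3 and 0 to 5. The highest counts came without HFD+Mino replicate 3, where 13.4%, 3.08% and 21.4% of all genes were called.

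Among the 10 clock genes, the sign of a log2 value turned for Per1, Per2, Per3 and Clock only. The 3-way distance of Per1 became -0.0583 with the exon length trend removed and -0.0034 with that on the GC-richest 100 nt, and its HFD+Mino against HFD value 0.36, 0.0419 and 0.18 with the trends on exon length, GC content and the GC-richest 100 nt removed. Per2 in HFD+Mino against Control became 0.0260 and 0.0779 with the block in all 9 samples and in Control and HFD+Mino alone, and 0.16 and 0.0146 with the trends on exon length and the GC-richest 100 nt removed. Per3 became -0.27 and -0.0910 (3-way distance) with the latter 2 trends removed, -0.0390 in HFD against Control with the exon length trend removed, and -0.0011 in HFD+Mino against HFD with the block in Control and HFD+Mino alone. With single mice left out, Per1 ran from -0.0077 to 0.32 (3-way), -0.0436 to 0.94 (HFD against Control), -0.0640 to 0.92 (HFD+Mino against Control) and -0.23 to 0.29 (HFD+Mino against HFD), Per2 from -0.42 to 0.63 (HFD+Mino against Control), Per3 from -0.0118 to 0.10 (3-way) and -0.0014 to 0.30 (HFD+Mino against HFD), and Clock from -0.28 to 0.32 (HFD+Mino against Control). The cause was not tested.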
